A study of Mus musculus with 25 samples.

Results

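Serum response factor (SRF) is a transcription factor that binds the CArG box, a run of A and T between CC and GG, in genes of growth signalling and of the actin cytoskeleton. It acts with ternary complex factors, which are phosphorylated by MAP kinases, or with myocardin-related factors (MRTFs), which enter the nucleus as free actin falls. LIM-domain proteins carry zinc-binding modules that dock onto actin structures and transcription factors, and several of their genes are known SRF targets. In the pituitary, gonadotropes answer gonadotropin-releasing hormone (GnRH) with calcium and MAP kinase signals and with remodelling of actin.

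The account covers 9 genes: Srf itself, the secreted matricellular genes Cyr61 and Ctgf, the LIM-domain genes Csrp1, Csrp2, Fhl1 and Fhl2, the adhesion gene Vcl and the ankyrin-repeat gene Ankrd1. They are 9 of 47069 rows in the expression table. Each was found by its symbol, and where a symbol has several rows the rule takes the row chosen by the highest mean level; each symbol had 1 row. The members were chosen with earlier results of these data known, so the number of them that pass a test supports nothing about SRF targets as a class. Cyr61 and Ctgf are the table's older names for Ccn1 and Ccn2.

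RNA was sequenced from the pituitaries of 25 hypogonadal hpg mice, which lack GnRH of their own because of a deletion in its gene, and all groups share that genotype. By the labels, animals were injected once daily intraperitoneally, with 1 µg GnRH or with saline, over 10 days, and pituitaries were taken 1 h after the last dose. The groups were 5 placebo females (animals 1 to 5), 6 GnRH females (6 to 11), 6 placebo males (12 to 17) and 8 GnRH males (18 to 25). The sources used here give no age or strain background, and the whole gland was used. In bulk tissue, more cells of a type and more RNA per cell cannot be told apart, nor can the last injection and the earlier ones.

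Values are regularized log2 expression, which is shrunken towards each gene's mean, so differences of low genes are understated. Depth per library is unknown. The labelled tissue matched its hormone genes, with means of 21.45 for Gh, 18.50 for Pomc, 17.40 for Prl and 12.35 for Tshb. Fshb, the beta subunit of follicle-stimulating hormone, rose by 2.42 averaged over the sexes (adjusted p = 4.548e-09, limma). Animals 18 and 21, both GnRH males, stood apart in immediate early genes: their means over 17 such genes were 10.90 and 10.94, against 9.53 to 10.19 in the other GnRH males and 8.78 to 9.79 in placebo animals of both sexes. Many values that moved by over 1.5 times or lost their call without these animals are given both ways, but not all are. The averaged Ctgf difference, for example, was 0.10 with them and 0.04 without them.

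Promoter sequences are shown first, because the CArG box is the letter pattern that SRF recognises. RefSeq promoters of build GRCm38.p6, from 250 bases before to 50 after a gene start, were found for 7 of the 9 members; Ctgf and Csrp2 had no entry. CArG boxes were searched on both strands, which is the same search because the pattern reads alike on each. Among all 32851 promoter windows 1.63% held a CArG box, and among 27025 genes 1.81% held it in at least 1 window. Srf, Fhl1, Fhl2 and Vcl held it, in 1 of 2 windows for Fhl1 and in 2 of 2 for Fhl2, and in the single window of Srf and of Vcl. The stretches below run 5′ to 3′ on the gene's strand, with the CArG box in capitals. The Srf stretch, at chr17:46556190-46556269 on the minus strand, held 2 boxes, from 82 to 73 and from 62 to 53 bases before its start.
Srf: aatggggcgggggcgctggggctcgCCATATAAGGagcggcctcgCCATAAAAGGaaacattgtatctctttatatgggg
The other stretches, each a box with its flanking bases, span chr1:43163962-43164017 (minus strand) and chr1:43196823-43196882 (minus strand) for the 2 start sites of Fhl2, at chrX:56779556-56779615 (plus strand) for Fhl1 and at chr14:20929148-20929205 (plus strand) for Vcl.
Fhl2, inner start: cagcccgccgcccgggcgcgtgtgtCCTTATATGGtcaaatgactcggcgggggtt
Fhl2, outer start: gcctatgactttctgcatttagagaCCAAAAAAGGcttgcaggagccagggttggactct
Fhl1: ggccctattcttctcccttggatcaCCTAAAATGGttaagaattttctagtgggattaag
Vcl: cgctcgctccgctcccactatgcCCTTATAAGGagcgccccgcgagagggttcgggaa

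A second pattern, GGAATG on either strand, is the core bound by TEAD factors, the DNA-binding partners of the coactivator YAP, for which Cyr61, Ctgf and Ankrd1 are standard target genes. It was present in 14.7% of all promoter windows, and in those of Cyr61, Vcl and Ankrd1 among the members. The Cyr61 stretch below spans chr3:145650058-145650113 on the minus strand, and the match within it, in capitals, reads as the reverse complement CATTCC on the gene's strand.
Cyr61: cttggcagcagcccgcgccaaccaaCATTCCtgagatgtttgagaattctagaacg
A match is a string of letters and not evidence of binding, and these windows leave out introns and distal elements.

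Of the 9 members, 8 had a mean of at least 3 and entered the test, and Ankrd1 did not. In females 1 of the 8 passed the fit over all 19141 genes (0.0993% of all genes called), in males 1 (0.496%, or 0.449% for higher calls), and for the effect averaged over the sexes 2 (1.71%). The gene that passed in each was Csrp2, and the averaged effect added Srf. Differences were positive for 8 of 8 tested members in females, with a median of 0.19, and for 7 of 8 in males, with a median of 0.32, while 50.1% and 48.5% of all genes were positive. In the averaged effect 8 of 8 were positive, against 49.4% of all genes. The medians over all genes tested were 0.00025 in females and -0.0022 in males. These counts include genes whose own test missed the threshold, and filtered genes are not all members.

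**Figure D1:**
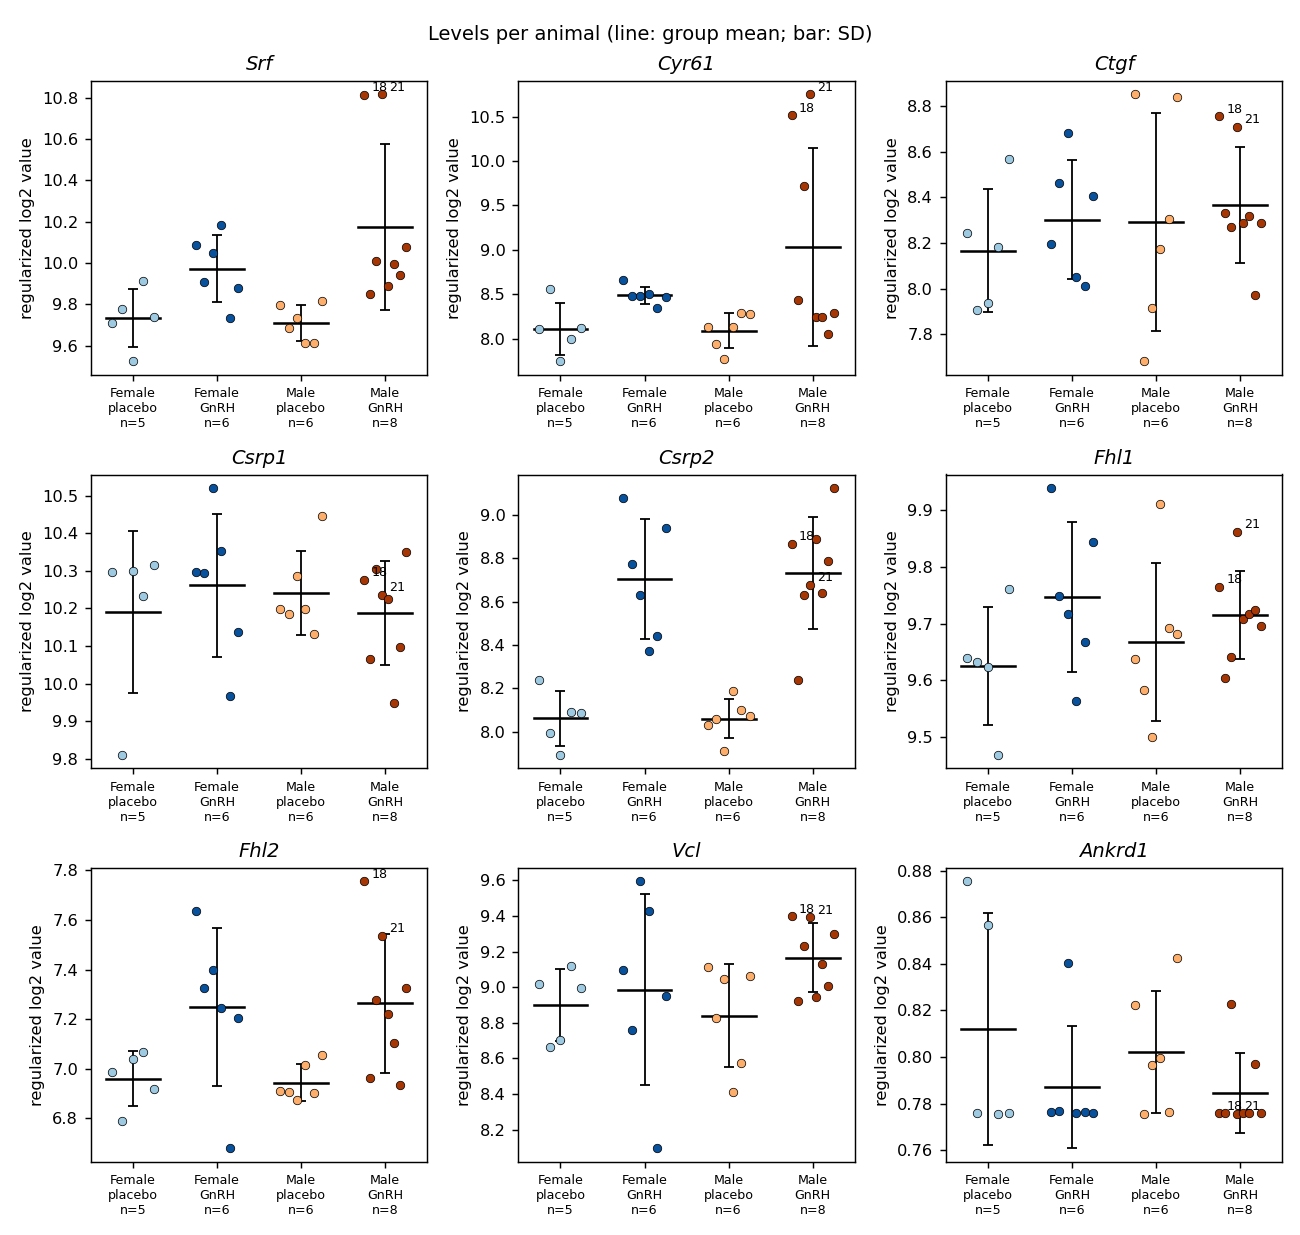
Regularized log2 value of each of the 9 genes in every animal, by sex and treatment; points are animals, lines the group means and bars the SD, and each panel has its own vertical scale that does not start at 0. All GnRH animals lie above every placebo animal of their sex for Csrp2, whereas the numbered males 18 and 21 are the highest points for Srf and Cyr61.

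Csrp2 encodes cysteine and glycine-rich protein 2, a protein of paired LIM domains that binds actin-bundling partners and is known from smooth muscle. Its gene lies at chr10:110919789-110939622 on the plus strand in GENCODE M21 (GRCm38). Placebo females had 8.24, 8.00, 7.89, 8.09 and 8.09, and GnRH females ran from 8.37 over a median of 8.70 to 9.08. Placebo males ran from 7.91 over 8.06 to 8.19, and GnRH males from 8.24 over 8.73 to 9.12. The groups did not overlap in either sex: 6 of 6 treated females and 8 of 8 treated males exceeded every placebo animal of their sex, which was so for 0.528% and 0.345% of all genes tested.

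Csrp2 rose by 0.64 in females (SE 0.12, adjusted p = 0.0192) and by 0.67 in males (SE 0.11, adjusted p = 0.00134), by limma with Benjamini-Hochberg adjustment. That is 1.56-fold and 1.59-fold on this scale. Averaged over the sexes, the difference was 0.66 (SE 0.08, adjusted p = 1.37e-05). In males the call held in 25 of 25 fits that left out an animal. In females it was lost without placebo animal 2 (adjusted p = 0.0535), 3 (0.0917) or 5 (0.0714) and without GnRH animal 6 (0.0795), 7 (0.0514) or 11 (0.0791), where differences stayed between 0.57 and 0.65, and it was also lost in a fit of the females alone (0.0559) or with no filter on the mean (0.0767). Without males 18 and 21 the male difference was 0.66 (adjusted p = 0.00772). Neither animal was extreme for Csrp2, with 8.87 and 8.68.

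Csrp1 is the paralog of Csrp2 and also binds actin-bundling partners, and it did not pass in either sex. Placebo females had 10.30, 9.81, 10.30, 10.23 and 10.32, and GnRH females ran from 9.97 over 10.295 to 10.52. Placebo males ran from 10.13 over 10.20 to 10.45, and GnRH males from 9.95 over 10.23 to 10.35. The groups overlapped in both sexes. The difference was 0.07 in females (SE 0.09, adjusted p = 0.827) and -0.05 in males (SE 0.08, adjusted p = 0.999), and the averaged difference of 0.01 had a 95% interval from -0.12 to 0.14. The sign in females turned to -0.02 without placebo animal 2. The interval for Csrp2, from 0.49 to 0.82, lay wholly above it, although the 2 genes were not tested against each other.

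**Figure D2:**
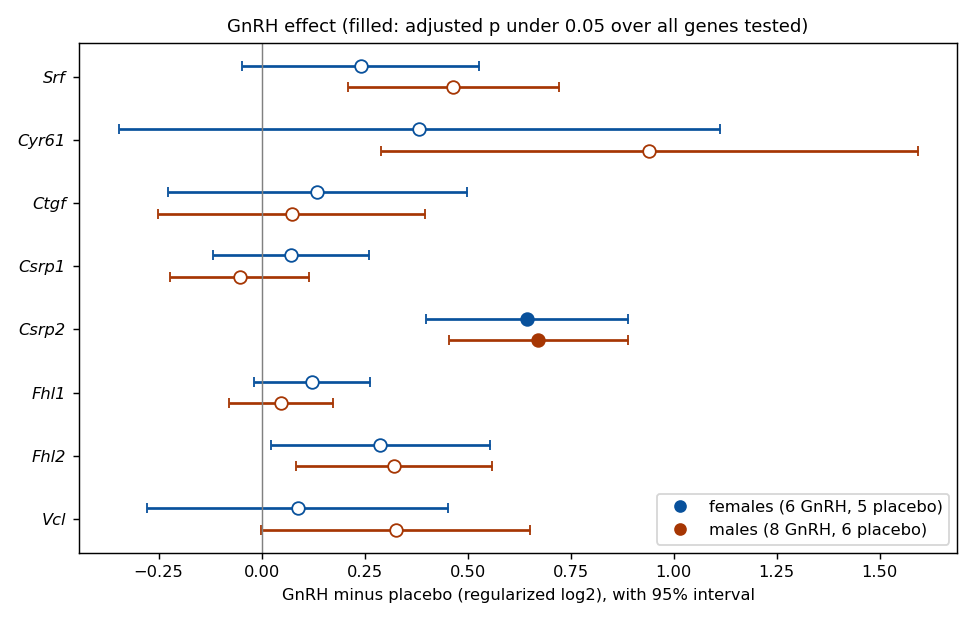
Difference between GnRH and placebo animals for the 8 members tested, in females (blue) and males (brown), on the regularized log2 scale; points are estimates of the limma fit, bars their 95% intervals, and filled points passed an adjusted p under 0.05 over all genes tested. Csrp2 is the member with filled points, at 0.64 in females and 0.67 in males.

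Srf is itself a target of SRF and an immediate early gene. Placebo females had 9.71, 9.78, 9.52, 9.91 and 9.74, and GnRH females ran from 9.74 over 9.98 to 10.18. Placebo males ran from 9.61 over 9.71 to 9.81, and GnRH males from 9.85 over 10.00 to 10.82. The male groups did not overlap, with 8 of 8 treated animals above every placebo male, which was so for 0.345% of all genes tested. In females 3 of 6 lay above every placebo female. The highest values, both 10.82, belonged to males 18 and 21, and the next GnRH male was animal 25 with 10.08.

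By limma the Srf difference was 0.24 in females (SE 0.14, adjusted p = 0.591) and 0.47 in males (SE 0.13, adjusted p = 0.114), so neither sex passed on its own. Averaged over the sexes Srf rose by 0.35 (SE 0.09, adjusted p = 0.0493). That call sat at the threshold: it was lost in 18 of 25 fits that left out an animal, with adjusted p of up to 0.121 (without placebo female 3), and held without GnRH female 10 and without GnRH males 18, 19, 21, 22, 23 or 24. It was also lost with no filter on the mean (0.134), without a variance trend (0.0625) and with robust moderation (0.0646). Without males 18 and 21 the averaged rise was smaller, 0.25, and its adjusted p was 0.0083. Those animals stood apart in these same data and hold the highest Srf values. Leaving them out also narrows the spread, so that p is no independent support. The female difference stayed at 0.24, with adjusted p = 0.252. In males alone the difference was then 0.25 (adjusted p = 0.210), and without GnRH male 19 it was 0.51 and passed (0.0491).

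Cyr61, a secreted protein that binds integrins in the matrix, had the widest range of all members, 3.01 from the lowest to the highest animal. Placebo females had 8.11, 8.55, 7.74, 8.00 and 8.13, and GnRH females were tightly spaced from 8.35 over 8.48 to 8.66. Placebo males ran from 7.77 over 8.13 to 8.29. Among GnRH males, animals 18, 20 and 21 had 10.51, 9.72 and 10.75, and the remaining 5 lay between 8.06 and 8.44. The 3 high animals also had the highest immediate early means of their group (10.90, 10.19 and 10.94), and the part of those animals' state in the Cyr61 value was not tested. The difference was 0.38 in females (SE 0.36, adjusted p = 0.743) and 0.94 in males (SE 0.32, adjusted p = 0.329), and 0.41 in males without animals 18 and 21 (adjusted p = 0.839). The fit shares its variance over all groups, so the female SE also holds the spread of the males. The SD was 1.12 in GnRH males, against 0.29 in placebo and 0.10 in GnRH females. The female difference had adjusted p = 0.354 with females only in the fit and 0.559 without males 18 and 21.

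Ctgf, the connective tissue growth factor of the same CCN family, did not pass in either sex. Placebo females had 8.25, 7.90, 7.93, 8.18 and 8.57, and GnRH females ran from 8.01 over 8.30 to 8.68. Placebo males were spread more widely, from 7.68 over 8.24 to 8.85, than GnRH males, from 7.97 over 8.30 to 8.76. Groups overlapped in both sexes, and the averaged difference was 0.10 with a 95% interval from -0.14 to 0.35 (adjusted p = 0.776). In males the difference of 0.07 became -0.05 without placebo animal 13, -0.0028 without placebo animal 14 and -0.05 without both males 18 and 21.

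Fhl2, a protein built of LIM domains that acts as a coregulator of SRF and other factors, stayed outside the threshold. Placebo females had 6.99, 6.79, 7.04, 7.07 and 6.92, and GnRH females ran from 6.68 over 7.28 to 7.64. Of the treated females 5 of 6 lay above every placebo animal, and animal 10 lay below every placebo animal with 6.68. Placebo males ran from 6.87 over 6.91 to 7.05 and GnRH males from 6.93 over 7.25 to 7.76, with 6 of 8 above every placebo male. The difference was 0.29 in females (SE 0.13, adjusted p = 0.482), 0.32 in males (SE 0.12, adjusted p = 0.407) and 0.30 averaged (SE 0.09, adjusted p = 0.0763). Without males 18 and 21 the male difference was 0.19 (adjusted p = 0.974). The averaged difference passed without GnRH female 10 (0.36, adjusted p = 0.00569) and without GnRH male 19 (0.0438) or 24 (0.0434). It was 0.24 (0.146) without males 18 and 21.

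Fhl1, a related LIM-only gene on the X chromosome that is prominent in striated muscle, varied least of the 8 tested members, with a range of 0.47 over all animals. Placebo females had 9.64, 9.63, 9.62, 9.47 and 9.76, against 9.56 over 9.73 to 9.94 with GnRH. The placebo males ran from 9.5002 over 9.66 to 9.91, and GnRH males from 9.60 over 9.71 to 9.86. All groups overlapped. Its averaged difference was 0.08 (SE 0.05, adjusted p = 0.475).

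Vcl encodes vinculin, which links integrin and cadherin adhesions to actin. Placebo females had 9.02, 8.66, 8.71, 9.12 and 8.99, and GnRH females ran from 8.10, in animal 10, over 9.02 to 9.59. Placebo males ran from 8.41 over 8.94 to 9.11, and GnRH males from 8.92 over 9.18 to 9.40. Groups overlapped, with 5 of 8 treated males above every placebo male and 2 of 6 treated females above every placebo female. The difference was 0.09 in females (SE 0.18, adjusted p = 0.894) and 0.32 in males (SE 0.16, adjusted p = 0.778). The shared variance makes the male SE also hold the spread of GnRH females (SD 0.53, against 0.19 in GnRH males). With males only in the fit the male adjusted p was 0.358, and without female 10 it was 0.473. Without female 10 the female value was 0.27 (adjusted p = 0.630), without GnRH female 8 it was -0.03 (0.948), and without GnRH female 9 it was -0.0015 (0.998).

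Ankrd1, a nuclear and sarcomeric ankyrin-repeat protein of heart and a YAP target, had a mean of 0.79, and values lay between 0.78 and 0.88 in all 25 animals. It was too low to be tested, and no fold was computed.

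Levels are compared between genes per length only, as the mean regularized log2 value less the log2 of exon length in kilobases from GENCODE M21. On that scale Csrp1 was highest with 9.25, followed by Srf (8.39), Fhl1 (7.80), Cyr61 (7.48), Csrp2 (7.31), Ctgf (6.78), Fhl2 (6.20), Vcl (5.96) and Ankrd1 (-0.73). Fhl1 and Cyr61, Cyr61 and Csrp2, and Fhl2 and Vcl are neighbours whose gap is within the SD of at least 1 group.

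Sex was compared in 2 ways. Which earlier results entered the choice of members is not stated, so neither comparison is taken as independent of that choice. Within placebo, 0 of 8 members passed between males and females (0.047% of all genes called), with differences between -0.06 (Vcl) and 0.13 (Ctgf). An unadjusted p under 0.05 by limma was found for 0 of 8, against 3.07% of all genes. When GnRH effects in males and in females were set against each other, 0 of 8 passed, as did 0% of all genes. Again 0 of 8 had an unadjusted p under 0.05 by limma, against 2.76% of all genes. With 8 members, counts of 0 are near such shares and are no result about the members. The widest interval was that of Cyr61, whose effect was 0.56 larger in males with a 95% interval from -0.42 to 1.54, and without males 18 and 21 this difference was 0.02. For Csrp2 it was 0.03 with an interval from -0.30 to 0.35, so sex differences within that interval, in either direction, were not excluded.

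Animals of 1 group differed from each other, and the members were compared by their deviations from the group means over 25 animals. All 36 pairs were tested by permuting animals within groups, with p-values adjusted over the pairs, and 11 passed, none of them among the 8 pairs with Ankrd1. Of the 28 pairs of tested members, 12 reached an r of 0.44 in size, that of the weakest pair past the threshold, as did 14.7% of all pairs of tested genes; without males 18 and 21 the corresponding r was 0.61, reached by 4 of 28 and by 4.37%. Values of a pair come from the same libraries and share their depth and cell content. Srf and Vcl varied together (Pearson r = 0.58, permutation p = 1e-05, the smallest the permutations can give, adjusted p = 0.00036; Spearman rho = 0.77, permutation p = 1e-05, adjusted p = 0.00036), and more closely without males 18 and 21 (r = 0.81), which were the 2 animals farthest from the median of Srf. Csrp1 and Vcl had r = 0.67 (permutation p = 0.00036, adjusted p = 0.00648; rho = 0.66, permutation p = 0.00065, adjusted p = 0.0117), and r = 0.57 without females 2 and 10, the farthest for Csrp1, where it missed the threshold (adjusted p = 0.0921).

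Csrp2 did not follow Srf (r = 0.14, permutation p = 0.590, adjusted p = 0.708; rho = 0.10, permutation p = 0.652, adjusted p = 0.782). It varied with Fhl1 (r = 0.57, permutation p = 0.00175, adjusted p = 0.0126; rho = 0.60, permutation p = 0.00276, adjusted p = 0.0199), and with r = 0.64 without males 19 and 25, the farthest for Csrp2. Srf and Cyr61 had r = 0.81 (permutation p = 0.00406, adjusted p = 0.0209; rho = 0.64, permutation p = 0.00333, adjusted p = 0.0200), but that relation rests on males 18 and 21, without which r was 0.22 (adjusted p = 0.488). In the whole set, 4 of 36 pairs passed without those 2 males: Srf with Vcl, Csrp1 with Fhl2, Csrp1 with Vcl and Csrp2 with Fhl1. Of these, Csrp1 with Fhl2 missed the threshold without females 2 and 10 (r = 0.49, adjusted permutation p = 0.2275), as did Csrp1 with Vcl.

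**Figure D3:**
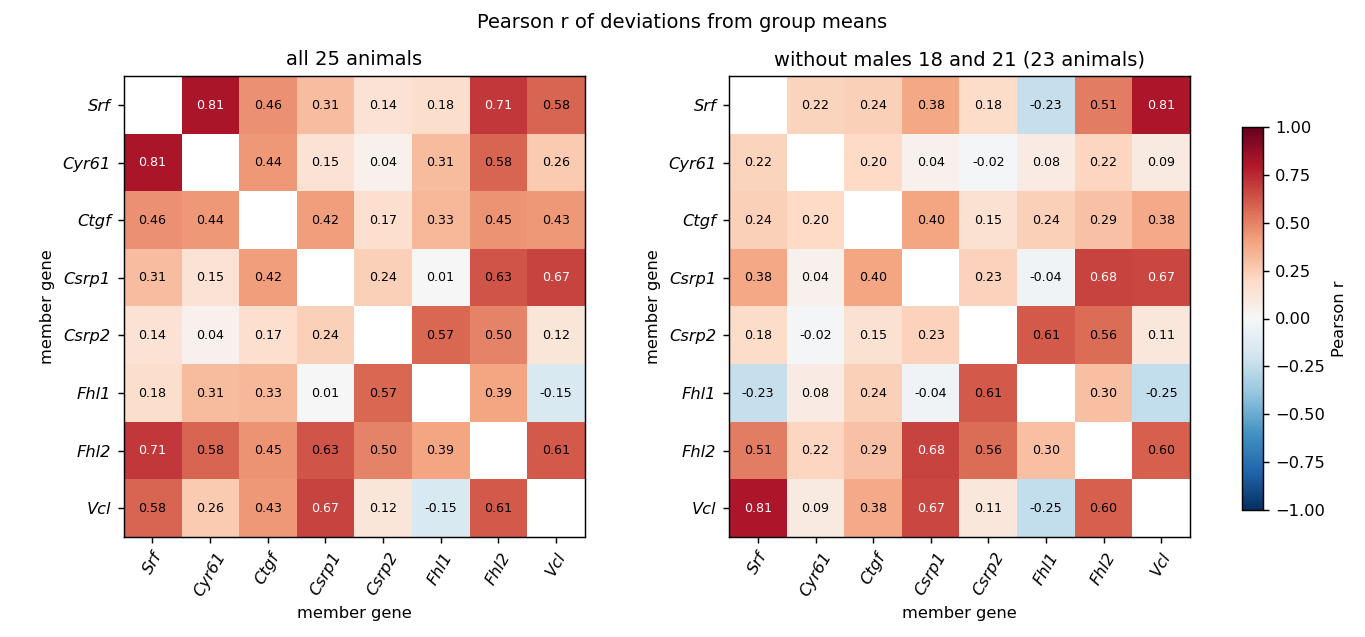
Pearson r between the deviations of 8 members from their group means, over all 25 animals (left) and without males 18 and 21 (right); rows and columns are genes and colour gives r from -1 to 1. Srf with Cyr61 falls from 0.81 to 0.22 when those animals are left out, and Srf with Vcl goes from 0.58 to 0.81.

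The genes whose deviations were most like each member's, over all 19141 genes tested and 25 libraries, are given here by Pearson r as a description. Srf was closest to Fosl1, an AP-1 subunit (0.89), F3, the gene of tissue factor (0.89), and Midn (0.88), which came to 0.47, 0.38 and 0.73 without males 18 and 21. Cyr61 was closest to Zfp36, which destabilises mRNA (0.93), Fosl1 (0.89) and Arc (0.87), or 0.68, 0.55 and 0.50 without those males. Csrp2 was closest to Trip10 (0.81), Srpk3 (0.81) and Spp1, the gene of osteopontin (0.77). Csrp1 was closest to Ace, the angiotensin-converting enzyme of endothelium (0.88), Slc6a6 (0.86) and Flt1, a VEGF receptor of endothelium (0.85). Vcl was closest to Stat3 (0.90), Slc7a1 (0.90) and Rps6ka3 (0.89), and Fhl2 to Zswim4 (0.89), the glucose transporter Slc2a1 (0.86) and Atf3 (0.85). For Ctgf they were Uhrf2, Myc and Plekhh1 (0.78, 0.76 and 0.73), and for Fhl1 Rasgrf1, Sfxn2 and Rps6kb1 (0.78, 0.78 and 0.76).

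Other genes of the pathway, listed from general knowledge but with earlier results of these data known, are described by counts. Such counts support nothing about a class of genes. Of 21 tested MRTF-type SRF targets, mainly actins and actin-binding proteins, 0 passed in females, 5 rose in males and 11 rose in the averaged effect, with 0 lower in each. Positive differences numbered 21 of 21 in females and 19 of 21 in males, with medians of 0.30 and 0.20. The averaged effect of all genes tested was called in 1.71%, and its higher calls made up 1.42%. The 5 that rose in males were Tpm4, a tropomyosin (0.52, adjusted p = 0.00115), Wdr1, which helps to disassemble actin (0.35, 0.00657), Zyx, the adhesion protein zyxin (0.37, 0.0252), Actb, beta-actin (0.33, 0.0262) and Actg1, gamma-actin (0.55, 0.0384), the last of them named after its value was seen. In females the smallest adjusted p on the list was that of Zyx (0.42, adjusted p = 0.0562), and 15 of 21 had an unadjusted p under 0.05. Over all genes tested the share with an unadjusted p under 0.05 was 9.57% in females, 6.42% in males and 12% in the averaged effect, against which such counts are to be read. The count of 11 was 9 without males 18 and 21, whereas the male count of 5 was then 1, Tpm4 (0.42, adjusted p = 0.00448), and Wdr1, Zyx, Actb and Actg1 had 0.29, 0.30, 0.26 and 0.44 (adjusted p = 0.0545, 0.172, 0.172 and 0.231). In females Tuft1 (0.44, adjusted p = 0.0151) and Zyx (0.42, 0.0273) then passed, Tuft1 being named after its value was seen.

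Smooth muscle genes overlap with this list, since 4 of the 6 smooth muscle markers (Acta2, Tagln, Myh11 and Cnn1) are MRTF-type targets too. Of the 6 markers 5 were tested, Cnn1 being too low, and none of the 5 passed in any of the 3 contrasts by limma. An unadjusted p under 0.05 was found for 4 in females, 0 in males and 1 averaged. Differences were positive in 5 of 5 in females (median 0.46), in 2 of 5 in males (median -0.0061) and in 5 of 5 averaged (median 0.21). Without males 18 and 21 the male values were 3 of 5 and 0.0034. The summed levels of the 6 overlapped between treatments. They were 10.39 to 10.77 in placebo and 10.49 to 11.28 in GnRH females, and 10.29 to 10.84 and 10.42 to 10.86 in males. Pericyte and fibroblast markers gave 0 of 11 past the threshold (0, 1 and 2 at an unadjusted p under 0.05 in females, males and averaged), with summed levels of 13.53 to 13.72 against 13.42 to 13.90 in females and 13.46 to 13.82 against 13.36 to 13.67 in males. Endothelial markers were positive in 8 of 8 in each sex, 3 (Tie1, Emcn and Plvap) rose in the averaged effect and 1 (Emcn, 0.27, adjusted p = 0.0416) in males, which missed the threshold without males 18 and 21 (0.23, 0.226); their summed levels were 12.89 to 13.02 in placebo and 13.02 to 13.24 in GnRH females and 12.89 to 12.96 and 12.94 to 13.25 in males, and their part in the actin-related changes was not tested. Of 7 gonadotrope markers, 3 rose (Fshb, Lhb and Gnrhr) and 2 fell (Nr5a1 and Gata2) in the averaged effect, 1 rose in females, and 2 rose and 1 (Gata2) fell in males, Gata2 missing the threshold there without males 18 and 21 (-0.37, adjusted p = 0.116). Without those males 1 gonadotrope marker rose and 1 fell in females. Summed levels of the 7 overlapped between treatments. They were 14.59 to 15.13 in placebo and 15.08 to 15.72 in GnRH females, and 14.52 to 15.46 and 14.99 to 15.67 in males. The mean level per animal, another measure, did not overlap. It was 10.23 to 10.60 in placebo and 10.78 to 10.97 in GnRH females, and 10.18 to 10.45 and 10.61 to 11.10 in males. The part of gonadotropes in the members' values was not tested. Skeletal and heart muscle markers gave 0 of 11 past the threshold (0, 1 and 1 likewise), with Ckm at a mean of 3.89 and Acta1 at 4.27.

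**Figure D4:**
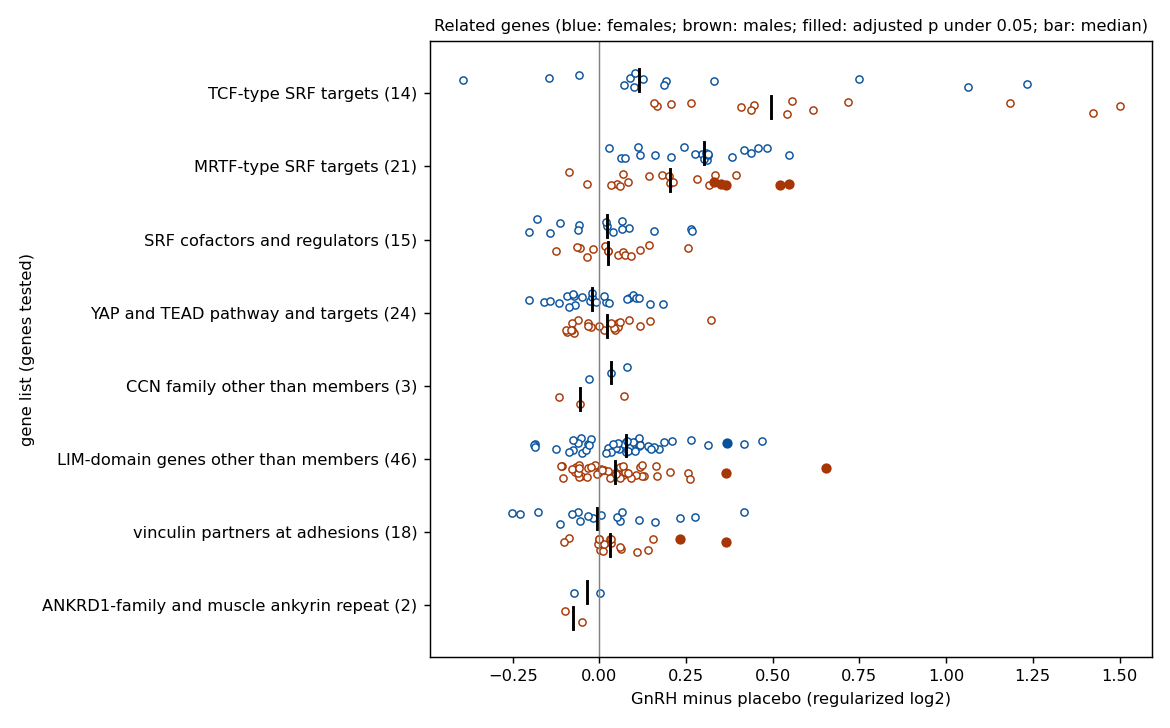
Difference between GnRH and placebo for each tested gene of 8 related lists, in females (blue) and males (brown), on the regularized log2 scale; filled points passed an adjusted p under 0.05 over all genes tested, black bars are list medians, and vertical jitter within a list has no meaning. MRTF-type targets have medians of 0.30 in females and 0.20 in males, and TCF-type targets 0.11 and 0.49.

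TCF-type SRF targets, the rapid-response genes that MAP kinase signals switch on, include many immediate early genes, in which males 18 and 21 stood apart. Of 14 tested, 11 were positive in females with a median of 0.11 and 14 in males with a median of 0.49 (12 and 0.21 without males 18 and 21), and 0 passed in either sex by limma, where 3 and 7 had an unadjusted p under 0.05. Fosb and Egr2 came closest, with 1.5003 (SE 0.38, adjusted p = 0.0718) and 0.72 (SE 0.20, adjusted p = 0.126) in males, or 1.02 (adjusted p = 0.327) and 0.52 (adjusted p = 0.554) without males 18 and 21. In the averaged effect 3 rose, Fosb (1.28, adjusted p = 0.0125), Arc (1.33, 0.0139) and Mcl1 (0.18, 0.0239), of which Arc and Mcl1 are named after their values were seen. Higher calls there made up 1.42% of all genes. Without those males Fosb and Arc passed (1.04 and 1.00, adjusted p = 0.0148 and 0.000941) and Mcl1 did not (0.16, 0.067). In the female contrast Arc then passed (1.23, adjusted p = 0.0221).

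Among 46 further LIM-domain genes, 1 rose in females, 2 in males and 5 in the averaged effect, with 0 lower; higher calls made up 0.0993%, 0.449% and 1.42% of all genes. Pdlim7, a PDZ and LIM protein of actin filaments, rose by 0.37 in females (adjusted p = 0.0258) and had 0.26 in males (adjusted p = 0.0599). Isl1, a LIM-homeodomain factor of the pituitary that is also a gonadotrope gene, rose by 0.65 in males (adjusted p = 0.0145), as did Zyx by 0.37; without males 18 and 21 Isl1 had 0.46 (0.0374). The 5 in the averaged effect were these 3 with Fhl3 (0.26, adjusted p = 0.0260) and Tgfb1i1 (0.26, 0.0293), the last named after its value was seen. These lists overlap, so the same calls recur across them. Zyx is also an MRTF-type target and a vinculin partner, Tgfb1i1 is also an MRTF-type target, and Fhl3 is also an SRF cofactor. Without males 18 and 21 Fhl3 and Tgfb1i1 missed the threshold (0.23 and 0.24, adjusted p = 0.067 and 0.0589). In females Zyx then passed (0.42, adjusted p = 0.0273).

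Of 18 vinculin partners Zyx and Vasp, which promotes actin filament growth, rose in males (0.37 and 0.23, adjusted p = 0.0252 and 0.0378), and Sorbs3 joined them in the averaged effect (0.21, adjusted p = 0.0471), where higher calls were 0.449% and 1.42% of all genes. Without males 18 and 21 none of the 18 passed in males (Vasp 0.20, adjusted p = 0.217), and Sorbs3 missed the threshold in the averaged effect (0.19, 0.122). None passed in females by limma, where their median was -0.0058 and 6 had an unadjusted p under 0.05. Without males 18 and 21 Zyx passed there (0.42, adjusted p = 0.0273). SRF cofactors and regulators gave 0 of 15 in either sex by limma (4 in females and 3 in males at an unadjusted p under 0.05), Cfl1 (0.27 in females, adjusted p = 0.279) and Fhl3 (0.26 in males, adjusted p = 0.293) being closest, and 1, Fhl3, in the averaged effect.

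Genes of the YAP and TEAD pathway gave 0 of 24 in each of the 3 contrasts by limma, with medians of -0.02 in females and 0.02 in males and 3, 0 and 3 genes at an unadjusted p under 0.05 in females, males and the averaged effect. Within a sex the smallest p belonged to Lats1 (-0.20, adjusted p = 0.465) and Tead3 (0.18, adjusted p = 0.467), both in females, and in the averaged effect to Nf2 (-0.11, adjusted p = 0.154), named after its value was seen. The other CCN genes gave 0 of 3 (0 at an unadjusted p under 0.05), with Wisp3 at -0.05 and Nov at -0.12 in males (adjusted p = 0.999 for both). The Ankrd1 relatives Ankrd2 and Ankrd23 gave 0 of 2 (0 at an unadjusted p under 0.05), with -0.10 and -0.05 in males (adjusted p = 0.894 and 0.999).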

How the data were processed

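Polyadenylated RNA of 25 pituitaries was sequenced, 1 library per animal, with RNA integrity numbers above 8.2 and a median of 9.1, per the labels' protocols. The authors deposited regularized log2 values, per the name of the table. bcl2fastq, STAR, featureCounts and mm10 are named in the submitters' processing notes; no version, strand setting or annotation is stated there. Of 47069 rows, 13765 were at 0 in all libraries, and the test covered the 19141 whose mean reached 3. Correlations between libraries were 0.993 to 0.998, and no 2 libraries held identical values.

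A single limma 3.58.1 fit in R 4.3.3 gave 1 mean per sex and treatment, with a trended moderated variance, 21 residual degrees of freedom, two-sided tests and Benjamini-Hochberg adjustment over all genes tested (threshold 0.05). The fit was tested on simulated data. Any adjusted p without another test named comes from it. Labels do not say whether animals shared litters or batches. The p-values treat the animals as independent, which could not be checked. Pairs of members used 100000 permutations within groups in Python 3.11.15.

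The members and lists were chosen with earlier results of these data known. Genes named are all members, up to 4 called genes per related list with the smallest p within a sex (or the closest 2 where none was called), and the 3 most alike genes per member, leaving out predicted genes. No paired analysis was possible because no animal number occurs in more than 1 group.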

Additional observations from a re-analysis of the deposited data

Results flagged for a closer look

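Each member was examined in each group, 36 sets of values in all, for an animal far from the rest of its group (Dixon's ratio of the gap to the whole range), and 3 such animals were found. Chance gives about 1 in 20 sets. Csrp1 in placebo female 2 was 9.81, against 10.23 for the nearest placebo female. Ankrd1 in GnRH female 8 was 0.84 (nearest 0.78), and in GnRH male 20 it was 0.82 (nearest 0.80); both lie in a gene too low to be tested.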

How the results depend on the processing

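Depth is unknown and shrinkage limits low genes such as Ankrd1. Alternatives for the related lists, and their values without males 18 and 21, were added after seeing the data. No called difference changed sign, and Csrp2 in males kept its call in every alternative run. Members called in females (1) were 0 with no filter on the mean and with females only in the fit, and 0 to 1 over fits without 1 animal; in males (1) they were 1 to 2; averaged (2) they were 1 with no filter, no variance trend or robust moderation, and 1 to 3 without 1 animal. All genes called in females (19) were 7 with no filter, 32 without males 18 and 21 and 4 to 67 without 1 animal; in males (95) they were 42, 38 and 46 to 153; averaged (327), 235 to 389; between the sexes in placebo (9), 7 to 10. MRTF-type targets called in females (0) were 1 with a mean of at least 6, 1 with quantile normalization, 2 without males 18 and 21 and 0 to 1 without 1 animal; in males (5) they were 2 with no filter, 3 with quantile normalization, 1 without males 18 and 21 and 2 to 8 without 1 animal; averaged (11), 9 to 11. TCF-type targets called in females (0) were 1 without males 18 and 21; in males (0), 0 to 2 without 1 animal; averaged (3), 2 to 4. Pairs past the threshold (11) were 7 with Spearman, 2 without the 2 animals farthest for the first gene of each pair, and 4 without males 18 and 21. No paired analysis was possible because no number is shared between groups. The causes were not tested.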
